A study of Mus musculus with 8 samples.

Results

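The 4 samples with RO titles were 2 samples labelled c-jun knock out and 2 labelled wild type, out of 8 samples of mouse B-lymphoid cells in the series. The rule that picks them uses their titles and no signal, and 19937 genes were compared between them. All 8 samples share the strain label SW129/C57BL/6J, no label names a treatment, time or age, and each RNA was read on 1 Affymetrix MoGene 1.0 ST array, which carries probes along whole transcripts. The other 4 samples, with D/F titles, have the same genotype labels, 2 of each, and served as a second set of the same comparison. The labels do not say how or where in the gene c-jun was deleted, whether the cells carried BCR-ABL, or whether 2 samples of a group came from separate animals or cultures. The p-values measure only how these particular samples vary; the labels do not tell how much of that is technical, and the knockout pair differs in sex-linked transcripts given further on. Replicates are numbered in order of deposit and have no order of their own.

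c-JUN, encoded by Jun, is a subunit of the AP-1 transcription factor, a dimer of JUN, FOS and ATF proteins that binds short DNA sites and responds to growth and stress signals. In B-lymphoid cells transformed by the BCR-ABL kinase, which the series title is about, c-JUN has been linked to Cdk6, the G1 cyclin-dependent kinase, and to DNA methylation near the start of that gene. Immature B cells are otherwise marked by the surrogate light chain of the pre-B-cell receptor, by the RAG recombinase and by the interleukin 7 receptor.

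Because AP-1 binds defined letters, the 250 bases before the start were read for Jun and for 2 genes lower in the knockout samples that hold such letters in them, and for Cdk6 and Emb, whose CG pairs are the bases that methylation acts on. All are from RefSeq in GRCm38.p6, written 5′ to 3′ on the gene's strand. In the first 3, capitals mark matches to the AP-1 site TGANTCA or to the AP-1-like sites known from the Jun promoter, TGACATCA and TTACCTCA, searched on both strands. In the last 2, capitals mark each CG. Jun lies on the minus strand with this stretch at chr4:95052223-95052472, P2ry14 on the minus strand at chr3:59153493-59153742 (the farthest upstream of 4 starts), S100a11 on the plus strand at chr3:93520246-93520495, Cdk6 on the plus strand at chr5:3343643-3343892 and Emb on the plus strand at chr13:117220323-117220572.
Jun: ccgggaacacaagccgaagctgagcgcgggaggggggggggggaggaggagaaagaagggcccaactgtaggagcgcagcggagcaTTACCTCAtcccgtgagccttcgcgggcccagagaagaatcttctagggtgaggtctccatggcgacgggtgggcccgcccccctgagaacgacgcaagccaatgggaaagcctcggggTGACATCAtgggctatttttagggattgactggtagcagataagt
P2ry14: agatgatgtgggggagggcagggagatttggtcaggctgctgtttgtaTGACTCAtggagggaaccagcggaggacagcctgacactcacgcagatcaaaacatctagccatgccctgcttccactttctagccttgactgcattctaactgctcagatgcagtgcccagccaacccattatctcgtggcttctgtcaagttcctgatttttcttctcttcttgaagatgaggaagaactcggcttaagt
S100a11: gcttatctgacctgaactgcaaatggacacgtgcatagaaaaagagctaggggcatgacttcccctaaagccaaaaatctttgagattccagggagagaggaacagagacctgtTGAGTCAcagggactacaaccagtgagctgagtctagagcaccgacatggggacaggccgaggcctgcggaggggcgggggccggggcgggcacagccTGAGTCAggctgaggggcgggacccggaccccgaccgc
Cdk6: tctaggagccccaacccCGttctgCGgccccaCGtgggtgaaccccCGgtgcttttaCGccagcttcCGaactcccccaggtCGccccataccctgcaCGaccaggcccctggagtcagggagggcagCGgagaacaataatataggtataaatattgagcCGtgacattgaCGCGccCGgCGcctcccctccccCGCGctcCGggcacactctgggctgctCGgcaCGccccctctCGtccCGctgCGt
Emb: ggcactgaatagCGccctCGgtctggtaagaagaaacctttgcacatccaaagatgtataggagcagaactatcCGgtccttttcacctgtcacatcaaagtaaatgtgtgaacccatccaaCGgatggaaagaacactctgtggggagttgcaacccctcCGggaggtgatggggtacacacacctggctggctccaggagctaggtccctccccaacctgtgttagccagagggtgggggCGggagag

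The Jun stretch holds TTACCTCA 164 bases and TGACATCA 45 bases before the start. P2ry14 holds TGACTCA 202 bases before its start, and S100a11 holds TGAGTCA at 136 and 38 bases. Cdk6 has 22 CG pairs in its stretch and Emb has 6. In windows of 300 bases, 250 before and 50 after the start, the AP-1 site was present in 8.08% of the 15613 measured genes with a window. It was present in 4 of the 20 genes with a window that were lower in the knockout samples after adjustment, namely Itga9, P2ry14, Rab39b and S100a11, and in 0 of 6 that were higher. The cAMP response element TGACGTCA, which ATF and CREB factors bind, was in 2.72% of all windows and in 0 of the 20 and 0 of the 6. TGACATCA was in 2.88% of all windows and, among these genes, in Jun and in Ctnnd1, which was higher. TTACCTCA was in 0.884% and, among these genes, in Jun alone. A match describes the letters and is not evidence of binding, and no methylation was measured on these arrays.

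The labels were first set against the genes that define them. Jun (probe set 10514466) was at 6.99 and 6.46 in RO knockout replicates 1 and 2 and at 8.82 and 8.84 in RO wild type replicates 1 and 2, all on the log2 scale. Both knockout arrays lay below both wild-type arrays, which held for 45.5% of all genes. Both knockout signals also lay under the median gene of their own array, which bounds how well the size of the fall can be read. The level fell by 2.10 (SE 0.27, limma adjusted p = 0.0195), a 4.29-fold lower signal. The direction held in every setting tried, but it no longer passed after quantile normalization (limma adjusted p = 0.117) or with wild type replicate 1 left out (limma adjusted p = 0.113). With 2 samples a side an exact permutation test has 6 assignments and cannot go below a two-sided p of 0.333, so the limma fit over all genes is the test used. Genes of the pre-B-cell receptor were high on all 4 arrays: Igll1, a part of the surrogate light chain, was between 13.96 and 14.21, and Cd79a, which signals for the receptor, between 13.02 and 13.30. Pax5, the factor that holds B-cell identity, was between 11.16 and 11.69.

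Cdk6 (probe set 10519324) was at 9.69 and 8.66 in the RO knockout replicates and at 11.11 and 11.002 in the RO wild-type replicates. The groups did not overlap, beside 45.5% of all genes that were lower in knockout with no overlap. The knockout arrays were further apart from each other than the wild-type arrays were. The log2 difference of -1.88 (SE 0.34) did not pass the adjustment over all genes (limma adjusted p = 0.110). It passed without knockout replicate 1 (-2.39, limma adjusted p = 1.17e-05) and with a robust prior (limma adjusted p = 0.0115). It did not pass without knockout replicate 2 (-1.36, limma adjusted p = 0.113), without wild type replicate 1 (0.575) or 2 (0.0920), or in any other setting, up to 0.642 after median centring. In the D/F samples Cdk6 was at 10.11 and 6.79 in knockout and at 11.50 and 11.58 in wild type. There it fell by 3.09 (limma adjusted p = 0.000238), with the knockout arrays far apart. After quantile normalization, and without the mean-variance trend, 0 genes passed in the D/F samples. This limits every D/F p-value given here and below.

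The arrays were then paired without regard to genotype. Counting genes that differ by at least 1 log2 unit, the 6 pairs of RO arrays did not sort by genotype. Knockout replicate 1 and wild type replicate 2, which differ in genotype, were the most alike with 421 such genes (2.11%), followed by wild type replicate 2 and knockout replicate 2 with 456 (2.29%). The 2 knockout arrays differed in 559 genes (2.80%) and the 2 wild-type arrays in 743 (3.73%). Wild type replicate 1 against knockout replicates 1 and 2 gave 1119 (5.61%) and 1615 (8.10%). Across genes, which are not independent replicates, the Pearson correlation was 0.981 and 0.982 between wild type replicate 2 and the knockout arrays, 0.978 between the knockout arrays and 0.969 between the wild-type arrays. Wild type replicate 1 was thus the array that stood apart, with correlations of 0.957 to 0.969 to the other RO arrays and the highest array median, 7.72 against 7.19 to 7.43.

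**Figure D1:**
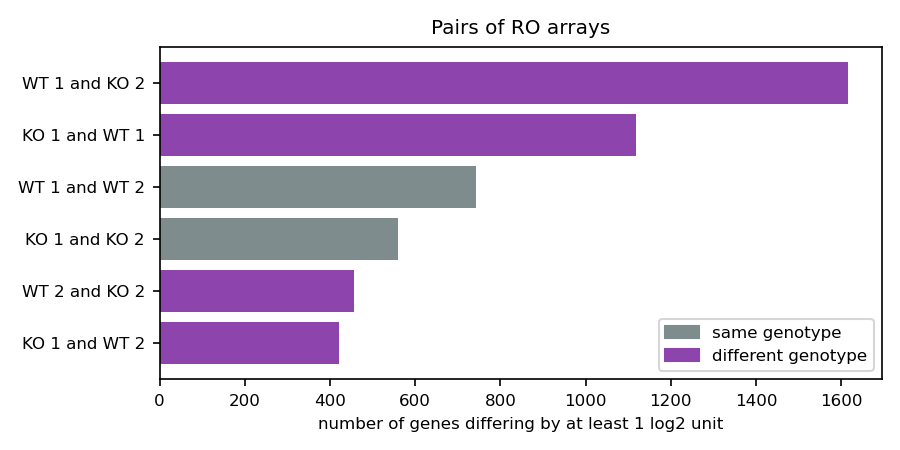
Number of genes, of 19937, whose log2 signals differ by at least 1 unit in each of the 6 pairs of RO arrays (KO knockout, WT wild type); bars are coloured by whether the 2 arrays share a genotype label. The shortest bars, 421 and 456 genes, join arrays of different genotype, and the longest, 1119 and 1615, both involve wild type replicate 1.

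Differences between the genotypes also depended on signal level. The median gene was 0.25 log2 units lower in the knockout than in the wild-type RO samples (a difference of -0.25), with 14645 genes lower and 5292 higher. With the genes cut into 10 equal bins of mean signal, the median difference was between -0.39 and -0.30 in the 6 lowest bins and 0.08 in the highest. The values were scaled by the authors to 1 mean per array, so the distributions of the arrays were left to differ. For each gene list below, the median is therefore given as deposited, to be read against -0.25, and again after each gene's difference was set against the median of its own bin, called genes of like signal.

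**Figure D2:**
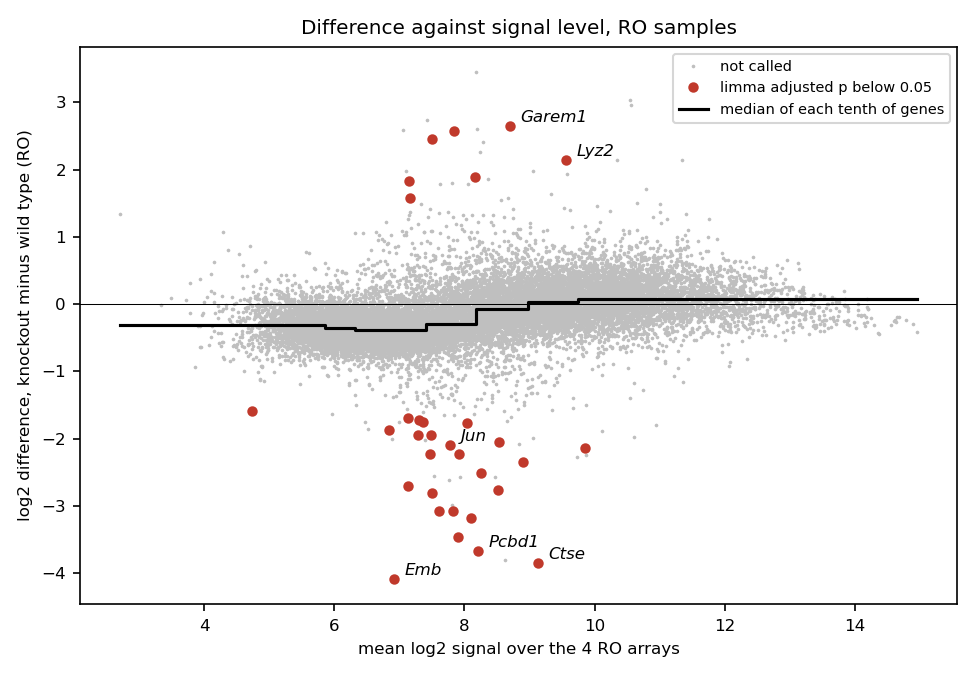
Log2 difference between RO knockout and RO wild-type samples (y axis) against the mean log2 signal over the 4 RO arrays (x axis), 1 point per gene; red points have a limma adjusted p below 0.05 and the black line is the median of each of 10 equal bins of genes. The line lies between -0.39 and -0.30 over the 6 lower bins and rises to 0.08 at the highest signals, and 25 red points lie below it and 7 above.

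Of 19937 genes, 32 (0.161%) had a limma p-value that passed a threshold of 0.05 once adjusted over all genes. Of these, 25 were lower in the knockout samples (0.125%) and 7 were higher (0.0351%). At an unadjusted limma p below 0.05 there were 2450 genes (12.3%), of which 2121 were lower (10.6%) and 329 higher (1.65%). This split turned with the scaling: quantile normalization gave 402 lower and 478 higher, and centring each array on its median gave 328 lower and 916 higher. The 2 groups were separated by a gap of at least 1 log2 unit for 69 genes (0.346%), 48 lower (0.241%) and 21 higher (0.105%); without any minimum gap, 9068 were lower with no overlap (45.5%) and 1737 higher (8.71%). Without wild type replicate 1, 16 genes passed and 11 of them were among the 32: Emb, Ctse, Pcbd1, Rnf130, Tes, Dock8, P2ry14, Aim2, Fstl1, Ackr2 and St3gal5. With any other array left out more genes passed, but each such fit left 1 array in a group. Without either knockout replicate, the variance of every gene came from the mean-variance trend alone. The number of calls thus rests on the arrays used and on how the variance is set.

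The deepest fall was that of Emb (probe set 10407327, chromosome 13), which encodes embigin, an immunoglobulin-superfamily glycoprotein that escorts monocarboxylate transporters to the cell surface. Emb was at 4.63 and 5.13 in the RO knockout replicates and at 8.99 and 8.93 in the RO wild-type replicates. The replicates of each genotype were close together and far from the other genotype. This is a 16.9-fold fall, or -4.08 on the log2 scale (SE 0.25), with a limma adjusted p = 0.000325. Both knockout signals lay near the bottom of the scale, far under the median genes of their arrays at 7.29 and 7.19. The size of the fall therefore cannot be read closely. In the D/F samples Emb was low everywhere, at 4.38 and 4.90 in knockout and 5.04 and 4.72 in wild type, so that the RO wild-type arrays were the only 2 of the 8 with a high signal. The RO difference minus the D/F difference of -0.24 was -3.84 (SE 0.39, limma adjusted p = 0.00634 for the difference between the 2 sets).

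Ctse, which encodes the endosomal aspartic protease cathepsin E, showed the same distribution. It was at 7.43 and 6.98 in RO knockout, at 10.999 and 11.11 in RO wild type, and at 6.33 to 7.14 on the 4 D/F arrays of both genotypes. Only the RO wild-type arrays were high. The RO difference was -3.85 (SE 0.28, limma adjusted p = 0.000555), and it differed from the D/F difference of -0.21 by -3.64 (SE 0.42, limma adjusted p = 0.0142).

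Pcbd1 encodes a pterin carbinolamine dehydratase that also serves as a dimerization cofactor of the transcription factor HNF1. It was at 6.41 and 6.32 in RO knockout and at 10.002 and 10.08 in RO wild type, and the groups were far apart (difference -3.67, SE 0.25, limma adjusted p = 0.000461). Of the 32 genes it was called in all 13 alternative settings. Emb was called in all 11 that tested it, and the signal filters left Emb out. In the D/F samples the order of Pcbd1 was the opposite. Pcbd1 was at 11.13 and 9.95 in D/F knockout and at 8.09 and 6.51 in D/F wild type, a rise of 3.24 (limma adjusted p = 1.86e-06).

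P2ry14, the receptor for UDP-glucose, also had opposite orders. It was at 6.02 and 6.12 in RO knockout and 8.83 and 9.47 in RO wild type (difference -3.08, SE 0.28, limma adjusted p = 0.00256), and at 9.74 and 8.53 in D/F knockout against 6.85 and 7.04 in D/F wild type (difference 2.19, limma adjusted p = 0.00028). No group overlapped its counterpart in either set. The long non-coding RNA gene F630111L10Rik overlaps P2ry14 in the RefSeq annotation and was chosen after its values were seen. Its signals were 6.57 and 6.40 against 7.95 and 8.53 in the RO samples (difference -1.75, SE 0.27, limma adjusted p = 0.0446), and since it shares its locus with P2ry14 it is not a separate observation.

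**Figure D3:**
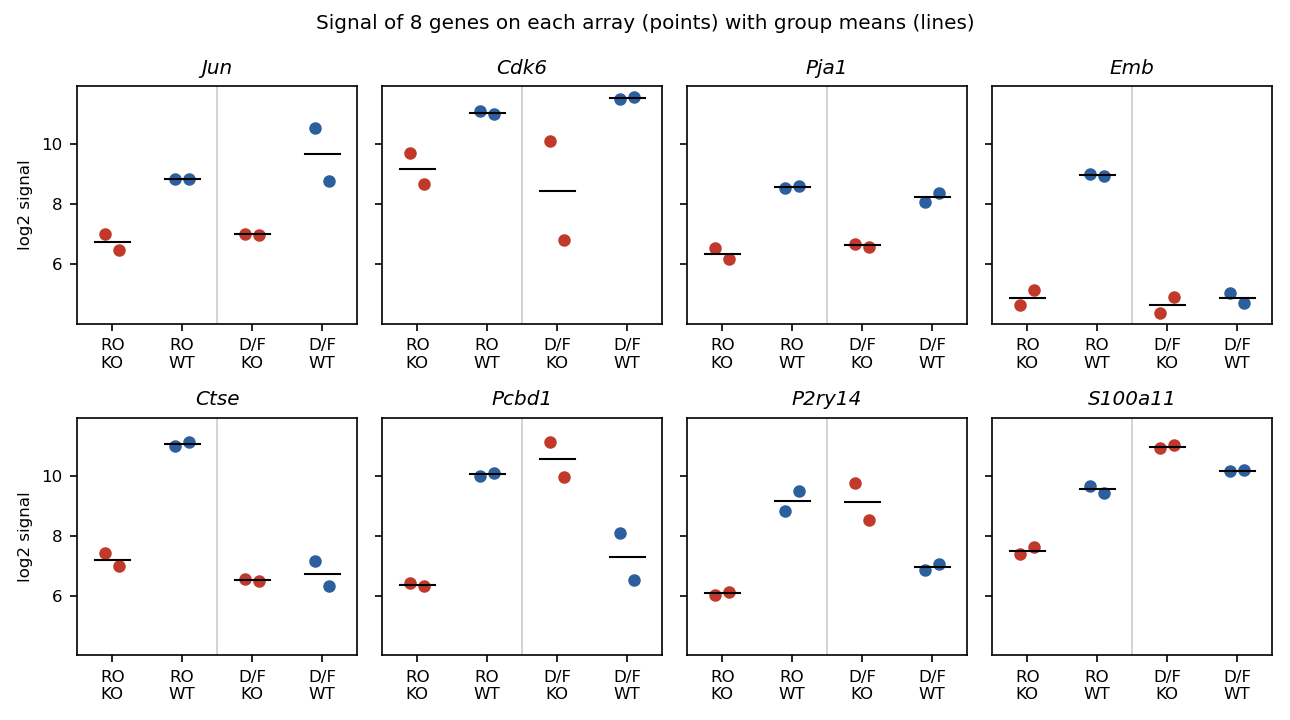
Log2 signal of 8 genes on each of the 8 arrays (points; red knockout KO, blue wild type WT), with the mean of each group of 2 as a line and the RO samples left of the grey bar in each panel. Jun, Cdk6 and Pja1 are lower in knockout in both sets, Emb and Ctse are high only in the RO wild-type samples, and Pcbd1, P2ry14 and S100a11 have opposite orders in the RO and D/F samples.

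Fstl1, a secreted follistatin-like glycoprotein, was at 6.47 and 5.87 in RO knockout and 9.23 and 10.01 in RO wild type (difference -3.46, SE 0.33, limma adjusted p = 0.00264). Dock8, an exchange factor for the GTPase CDC42 in lymphocyte migration, was at 6.55 and 6.47 against 10.06 and 9.32 (difference -3.18, SE 0.30). Tes, a LIM-domain protein of focal adhesions, was at 6.23 and 6.36 against 9.51 and 9.22 (difference -3.08, SE 0.25). In all 3 the knockout arrays lay below the median gene of their arrays and the wild-type arrays well above it. The adaptor Grb7, which binds activated receptor kinases, had a difference of -2.77 (SE 0.40), the integrin subunit gene Itga9 one of -2.52 (SE 0.38) and Plek, which encodes pleckstrin, a substrate of protein kinase C, one of -2.34 (SE 0.32). Their limma adjusted p-values were between 0.0257 and 0.0418.

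Rnf130, an E3 ubiquitin ligase gene, was at 6.30 and 5.89 in RO knockout and 9.06 and 8.74 in RO wild type (difference -2.81, SE 0.26). Aim2, the cytosolic sensor of double-stranded DNA that builds an inflammasome, was at 5.86 and 5.69 against 8.82 and 8.13 (difference -2.70, SE 0.28). Both passed, with limma adjusted p-values of 0.00256 and 0.00470. Ackr2, a scavenging chemokine receptor, fell by 2.22 (SE 0.26), and Emid1, which encodes a secreted protein with an EMI domain, fell by 2.14 (SE 0.33). Pja1, a ubiquitin ligase gene on chromosome X, was at 6.53 and 6.17 against 8.55 and 8.61 and fell by 2.23 (SE 0.25, limma adjusted p = 0.00854). Of the 25 genes, Jun and Pja1 were the 2 that were also lower after adjustment in the D/F samples.

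The remaining 8 of the 25 lower genes were outside the naming rule and are given because the text would otherwise leave them out. S100a11, a calcium-binding protein, was at 7.38 and 7.63 in RO knockout and 9.67 and 9.42 in RO wild type (difference -2.04, SE 0.27), and a second probe set gave -1.49. The ganglioside synthase gene St3gal5, the vesicle GTPase gene Rab39b, the microtubule protein gene Map2 and the Myc relative Bmyc had differences between -1.95 and -1.77. Rgs7bp, a binding partner of RGS7, the vesicular polyamine transporter gene Slc18b1 and the olfactory receptor gene Olfr229 had -1.72, -1.69 and -1.59. For Olfr229 the 4 signals, 3.91 to 5.57, lie at the bottom of the scale, where a size cannot be read.

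Among the 7 genes that rose in the RO knockout samples, the highest signals were those of Lyz2, which encodes lysozyme. It was at 10.63 and 10.64 in knockout and 8.33 and 8.66 in wild type, a rise of 2.14 (SE 0.27, 4.41-fold, limma adjusted p = 0.0189). Clec4a3, a C-type lectin gene, was at 9.04 and 8.43 against 5.95 and 6.61 (difference 2.45, SE 0.31, limma adjusted p = 0.0189). Both are best known from macrophages and granulocytes. Of 28 measured myeloid markers, 6 and 9 lay above the array median in the knockout replicates and 3 and 8 in the wild-type replicates, and their mean signal ranged from 6.97 in knockout replicate 2 to 7.28 in wild type replicate 1. At an unadjusted limma p below 0.05, 2 of the 28 were higher in knockout, Lyz2 and the receptor gene Trem1, and 3 were lower, beside 1.65% and 10.6% of all genes. Trem1 was at 8.36 and 8.29 in knockout and 7.63 and 7.84 in wild type (difference 0.59, limma adjusted p = 0.397). Adgre1, a surface antigen of macrophages, was at 5.71 to 6.42 on the 4 arrays and Mpo, the myeloperoxidase of granulocytes, at 6.39 to 7.11. The part of such cells in the Lyz2 and Clec4a3 results was not tested. In RNA from a whole sample, fewer cells of a type and less RNA per cell cannot be told apart.

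Garem1, an adaptor that links receptor kinases to ERK, was at 10.52 and 9.51 in RO knockout and 7.16 and 7.59 in RO wild type (difference 2.64, SE 0.36, limma adjusted p = 0.0230). Ctnnd1, which encodes the cadherin partner p120 catenin, was at 8.64 and 9.62 against 6.74 and 6.39 (difference 2.57, SE 0.33, limma adjusted p = 0.0209). The knockout arrays were high and the wild-type arrays low for both. Lyplal1, a lysophospholipase-like gene, rose by 1.89 (SE 0.28), Gpr65, a proton-sensing receptor gene, by 1.83 (SE 0.24) and Olig3, a helix-loop-helix factor gene of the nervous system, by 1.58 (SE 0.24). Without wild type replicate 1 none of the 7 passed (limma adjusted p from 0.0977 to 0.291).

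By the naming rule, 8 further genes with separated groups are given as values that did not pass. Pla2g7, the platelet-activating factor acetylhydrolase, was at 8.69 and 11.11 in RO knockout against 6.15 and 6.76 in RO wild type (difference 3.44, SE 0.61, limma adjusted p = 0.0953). Colec12, a scavenger receptor gene, was at 12.28 and 11.82 against 7.89 and 10.15 (difference 3.03, SE 0.57). Bank1, a scaffold of B-cell receptor signalling, was at 9.94 and 10.13 against 7.57 and 8.55 (difference 1.98, SE 0.34). In each of these the replicates of 1 genotype were spread widely. Cyyr1, Marcks, Uaca, Septin10 and Ms4a6b had differences of 2.60, 2.58, 2.41, 2.26 and 1.98.

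The same contrast was then read in the D/F samples, which share no array with the RO samples. There 79 genes passed (0.396%), 52 lower (0.261%) and 27 higher (0.135%) in knockout, but this number went to 0 after quantile normalization, without the mean-variance trend, among genes above the median signal and without D/F wild type replicate 1. At an unadjusted limma p below 0.05 the counts were 675, 345, 373 and 3132 in those settings. Of the 25 genes lower in the RO knockout samples, 11 were lower and 14 higher in D/F knockout, a share of 44.0% lower beside 47.6% of all genes. Only Jun and Pja1 passed in the same direction, while Pcbd1, P2ry14 and S100a11 passed in the other. Of the 7 genes higher in RO knockout, 6 were lower in D/F knockout and 0 passed; at an unadjusted limma p below 0.05, 2 of the 7 were lower, Clec4a3 and Lyplal1, beside 2.14% of all genes lower and 3.80% in either direction. Over all genes the RO and D/F differences had a Pearson correlation of -0.16 across genes, given as a description.

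Many of the 32 genes also varied between D/F samples of 1 genotype. A pair of D/F arrays with the same genotype differed by at least 1 log2 unit in 19 of the 32 (59.4%), beside 5.09% of all genes. Garem1 was at 8.98 and 6.45 in D/F knockout and at 10.43 and 6.58 in D/F wild type. Rnf130 was at 10.79 and 6.31 against 9.78 and 6.52, and Clec4a3 was at 5.69 and 5.76 against 9.95 and 5.79. In each of these 3 genes, 2 D/F arrays of 1 genotype were further apart than the RO genotype means.

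A test of the difference between the 2 sets passed for 6 genes (0.0301%): Pcbd1, P2ry14, Emb, Ctse and S100a11, which had the lower RO difference, and Zfp938, a zinc-finger gene outside the naming rule. Zfp938 was at 8.66 and 9.20 in RO knockout and 8.45 and 8.39 in RO wild type, but at 6.77 and 6.39 in D/F knockout and 9.08 and 9.62 in D/F wild type. It was low only in the D/F knockout arrays.

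**Figure D4:**
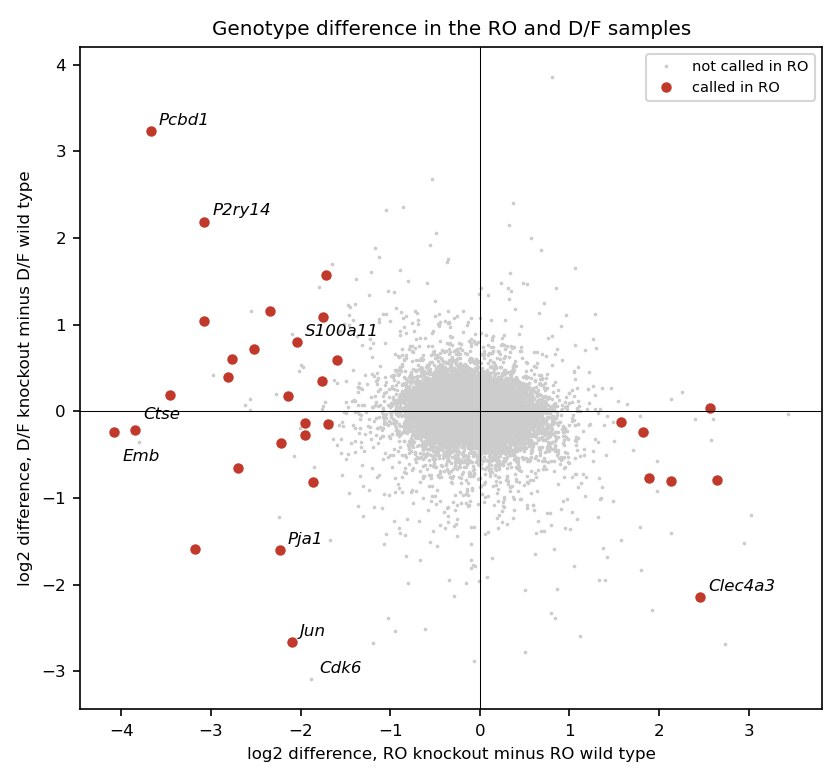
Log2 difference between knockout and wild type in the D/F samples (y axis) against that in the RO samples (x axis), 1 point per gene; red points passed in the RO samples. Jun and Pja1 lie low on both axes, Emb and Ctse lie near 0 on the D/F axis, and Pcbd1, P2ry14 and S100a11 lie in the upper left, lower in RO knockout and higher in D/F knockout.

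Gene lists were used to describe the functions that differ. Of 749 genes measured in 33 lists, 1 rose after adjustment (Lyz2) and 4 fell (Jun, Emb, Ctse and Pja1), beside 0.161% of all genes. In the AP-1 family, 1 of 18 fell, Jun itself, and 2 of 18 were lower at an unadjusted limma p below 0.05, beside 10.6% of all genes. The other JUN genes, Junb and Jund, had differences of -0.49 and -0.44, Fos had -0.23 and Atf2 0.38, with limma adjusted p-values of 0.418 to 0.611. The list's median was -0.38, and -0.08 against genes of like signal. Of 27 described AP-1 target genes, 0 passed the adjustment, and at the unadjusted threshold 6 were lower and 1, the connexin gene Gja1, higher, beside 10.6% and 1.65% of all genes. Gja1 was at 11.95 and 11.33 in RO knockout and 9.54 and 10.32 in RO wild type (difference 1.71, SE 0.33, limma adjusted p = 0.139). The targets' median was -0.26, and -0.02 against genes of like signal.

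Genes of the cell cycle lay near or above the all-gene median. For G1 cyclins, kinases and inhibitors the median was 0.13 with 13 of 24 higher on average in knockout, for DNA replication 0.17 with 29 of 38 and for mitosis 0.21 with 21 of 28. Against genes of like signal the 3 medians were 0.08, 0.09 and 0.14, and without wild type replicate 1 the numbers higher were 14, 19 and 14. Among them 0 passed the adjustment, and at the unadjusted threshold 4 were lower and 0 higher, beside 10.6% and 1.65% of all genes. After Cdk6 the member with the lowest p among the G1 genes was Ccnd2, cyclin D2, a partner of CDK6, at 11.93 and 11.28 against 12.79 and 12.27 (difference -0.92, SE 0.28, limma adjusted p = 0.397). Cdkn2a, which encodes INK4A and ARF, was at 7.93 and 7.83 in RO knockout and 10.97 and 8.13 in RO wild type. The size of its RO difference, -1.67, thus rested on the high signal of wild type replicate 1. In the D/F samples Cdkn2a was also lower, at 8.37 and 7.65 in knockout and 9.50 and 9.49 in wild type (difference -1.48, SE 0.27).

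Genes that mark immature B cells mostly lay above the array median: of 22 genes of the pre-B-cell receptor and V(D)J recombination, 21 and 20 were so in the knockout replicates and 19 and 22 in the wild-type replicates. Il7r, the interleukin 7 receptor, was at 12.40 and 12.44 in RO knockout and 8.92 and 11.64 in RO wild type (difference 2.14, SE 0.65, limma adjusted p = 0.397; 0.78 without wild type replicate 1). Rag1 was at 9.88 and 10.43 against 7.22 and 9.80, and Rag2 at 9.09 and 9.49 against 6.22 and 8.63. In all 3 wild type replicate 1 was the low array and wild type replicate 2 lay close to the knockout arrays. In the D/F samples Il7r had the opposite order, at 9.75 and 8.96 in knockout and 11.39 and 10.13 in wild type. The D/F difference was -1.40 (SE 0.27, limma adjusted p = 0.00727). Blk, a SRC-family kinase of the B-cell receptor, was lower in both RO knockout arrays, at 6.64 and 6.84 against 9.34 and 8.33 (difference -2.10, SE 0.33, limma adjusted p = 0.0569). Its groups did not overlap, beside 45.5% of all genes that were lower with no overlap. Without wild type replicate 1 its difference was -1.59. Of the 22 genes 0 passed, and 15 were higher on average, 13 without wild type replicate 1. The list's median was 0.16, and 0.11 against genes of like signal. Of 28 B-lineage transcription factors 0 passed, and their median was 0.07.

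Markers of later B cells were mostly lower on average, as were most genes. Of 22 markers of mature B and plasma cells 19 were lower, beside 14645 of all 19937 genes. Among the 22, 0 passed, and their median was -0.42, but -0.06 against genes of like signal. Cd22, an inhibitory co-receptor, was at 7.55 and 7.58 in RO knockout and 8.96 and 9.29 in RO wild type (difference -1.56, SE 0.26, limma adjusted p = 0.0723). In the MHC class II list 1 of 15 fell, Ctse, and H2-Aa, the alpha chain of I-A, was at 5.14 and 5.16 against 7.28 and 6.27 (difference -1.63, SE 0.31, limma adjusted p = 0.135). That list's median was -0.17 relative to all genes and turned to 0.12 without wild type replicate 1. In the list of lysosomal proteases and inhibitors, with 23 genes measured, Ctse fell. Hexa, which the list also holds, encodes a hexosaminidase subunit and not a protease or inhibitor. It was at 6.46 and 6.19 against 10.30 and 8.30 (difference -2.98, SE 0.51, limma adjusted p = 0.0818). The other cathepsin genes did not pass: Ctsh had -1.27, Ctsz -0.81, Ctss -0.03 and Ctsd -0.07. In the adhesion and homing list Emb fell, and of the other 31 genes 0 passed; Bsg, which encodes basigin, the relative of embigin with the same transporter role, was at 10.72 to 11.10 on the 4 arrays (difference -0.10).

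Markers of cells other than B-lymphoid cells were counted on each array, in the order knockout replicates 1 and 2, then wild type replicates 1 and 2. Of 26 T and NK cell markers 3, 3, 5 and 2 lay above the array median, of 18 erythroid and megakaryocyte markers 5, 4, 5 and 5, of 27 stromal markers 8 on each, and of 19 stem and progenitor markers 6, 6, 5 and 7. Of these 4 lists 0 genes passed the adjustment.

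Interferon-response genes were mostly lower on average, 27 of 31, beside 14645 of all 19937 genes. Their median was -0.42, and -0.22 against genes of like signal. Of the 31 genes 0 passed the adjustment, while 10 were lower at the unadjusted threshold, beside 10.6% of all genes. Without wild type replicate 1 the median relative to all genes was -0.10 in place of -0.17. Irf9, part of the ISGF3 complex that interferon turns on, was at 8.19 and 7.35 in RO knockout and 9.20 and 8.37 in RO wild type, and the lower wild-type array lay just above the higher knockout array. Of 30 genes of cholesterol and fatty-acid synthesis 0 passed, and 6 were higher at the unadjusted threshold, beside 1.65% of all genes: Nsdhl, Msmo1, Insig1, Cyp51, Idi1 and Hmgcs1, with differences between 0.67 and 0.92. All 6 act in or regulate sterol synthesis. The median of that list was 0.12, and 0.05 against genes of like signal. In the D/F samples its median was -0.08, and Nsdhl had a difference of 0.02, Msmo1 -0.21, Insig1 -0.43 and Cyp51 -0.46. Ribosome biogenesis genes had a median of -0.16, above the all-gene median, but -0.24 against genes of like signal, and 0 of 32 passed at either threshold.

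Of 16 genes of DNA methylation 0 passed. The maintenance methyltransferase gene Dnmt1 was between 11.39 and 11.60 on the 4 arrays (difference 0.10), Dnmt3a between 9.39 and 9.67 (difference -0.10) and Dnmt3b between 7.48 and 8.08 (difference -0.26). Each of these 3 had overlapping groups. Mbd2, a reader of methylated DNA, was at 12.60 and 12.07 in RO knockout and 11.48 and 11.87 in RO wild type (difference 0.66, SE 0.26, limma adjusted p = 0.397).

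**Figure D5:**
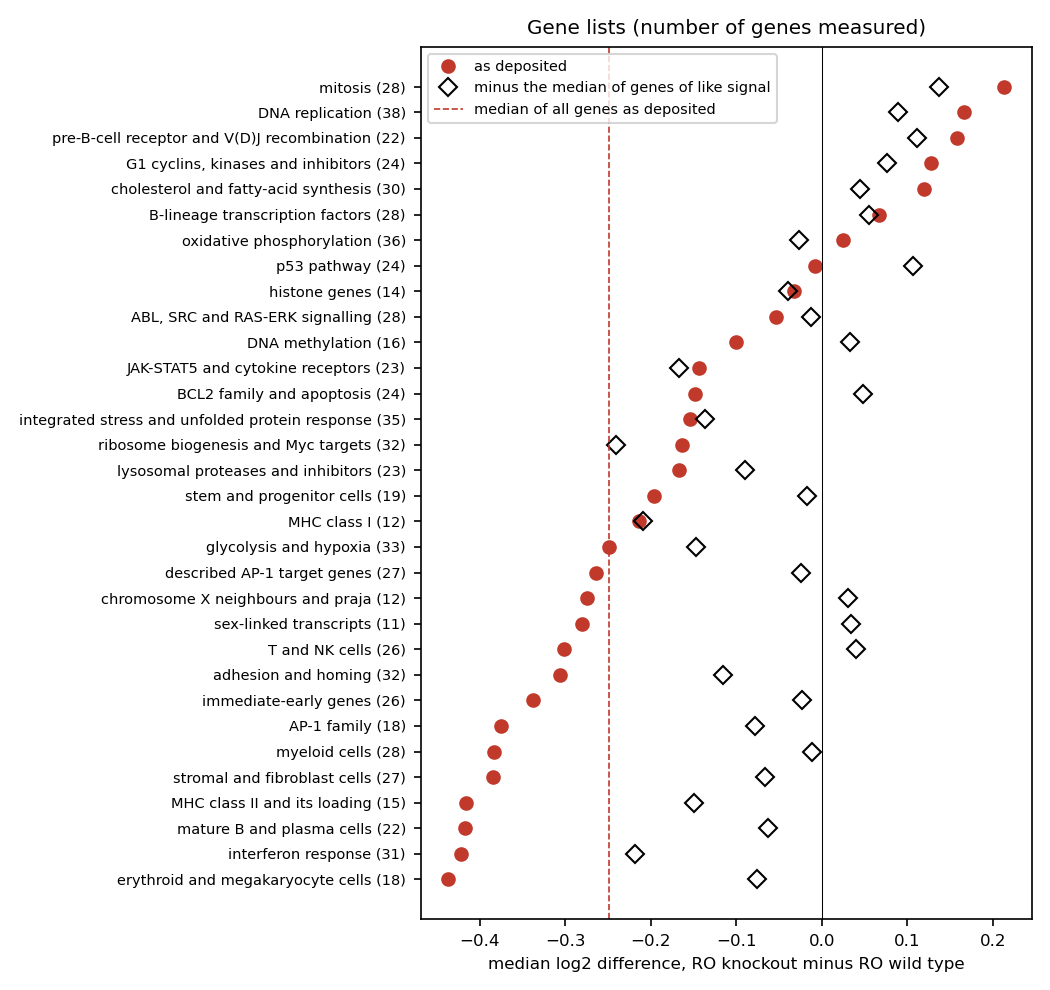
Median log2 difference between RO knockout and RO wild-type samples for the 32 gene lists with at least 10 measured genes; filled circles use the signals as deposited, open diamonds subtract the median of genes of like signal, and the dashed line marks the all-gene median of -0.25. Mitosis, DNA replication and pre-B-cell receptor genes have the highest medians as deposited and the interferon response one of the lowest, and most diamonds lie nearer to 0.

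The RO arrays also differed within a genotype in transcripts that mark the source of the cells. Xist, the RNA that silences an X chromosome in female cells, was at 11.68 in knockout replicate 1 and between 5.90 and 6.16 on the other 3 RO arrays. Eif2s3y, on the Y chromosome, was at 4.97 in knockout replicate 1 and between 9.29 and 10.22 on the other 3. On the 4 D/F arrays Eif2s3y was between 4.88 and 5.30, a range that includes knockout replicate 1. The other 3 RO arrays lay above all 4 D/F arrays. The part of this transcript in the differences between the sets was not tested. The labels give no sex. Dntt, which adds bases without template at antigen-receptor joints, was at 10.11 in knockout replicate 1 and between 6.81 and 7.55 on the others. Ighm, the mu heavy chain, was at 9.97 against 6.42 to 7.61 by the probe set used. That probe set had an RO difference of 0.86, while other Ighm probe sets had -0.22 and -0.45. Knockout replicate 1 thus stood apart from the other 3 RO arrays in these 4 transcripts, and their part in the results was not tested.

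Genes next to Jun were also read. Of the 50 measured genes nearest to Jun on chromosome 4, 25 on each side, 0 passed the adjustment and 0 had separated groups with a gap of at least 1. At an unadjusted limma p below 0.05 there were 10 (20.0%, beside 12.3% of all genes). Over the 50 genes the differences ran from -1.67, that of Cdkn2a described above, to 0.64, with a median of -0.33. The 32 genes that passed were spread over the chromosomes, with at most 4 on any of them (chromosomes 1, 10 and 11).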

How the data were processed

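The data were 8 Affymetrix MoGene 1.0 ST arrays, 1 per sample, made from 200 ng of RNA each. The authors deposited log2 signals; MAS5 is named in the submitters' processing notes, with version, settings and annotation not given in the sources used here. In the deposited values each array's linear mean, with 2% trimmed, was the same, so the arrays were scaled but their distributions were not made equal. Samples were grouped by the labels. Of 34760 probe sets, 21640 had 1 gene symbol, 1321 several and 11799 none in the platform annotation; those with several or none were left out, and the probe set of highest mean stood for each of 19937 genes. Entrez identifiers matched for 21553 probe sets.

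Genotypes were compared with limma 3.58.1 in R 4.3.3 (lmFit, and eBayes with a mean-variance trend) on the 4 RO arrays, with 2 residual degrees of freedom, Benjamini-Hochberg adjustment over all genes and a threshold of 0.05. The D/F arrays had their own fit, and the difference between the 2 sets came from a 4-group fit on 8 arrays. The fitting code was tested on simulated data. A gap is the lowest signal of the higher group minus the highest of the lower. Named genes were Jun, Cdk6, Emb and Ctse, per direction the 15 of largest difference among those that passed, filled up by the widest gap, up to 4 per list of smallest p, and list members whose role the text describes; predicted genes and olfactory receptors were left out. Genes named outside this rule are said to be so. The 33 lists hold 843 genes, 749 of them measured. The samples, markers and lists were chosen with earlier results of these data known. Alternatives were quantile normalization, median centring, other probe-set rules, signal filters, no trend, a robust prior, a 4-group fit and leaving out each array; for the lists, these scalings, genes of like signal and leaving out wild type replicate 1 were added after seeing the data. Promoter windows are from RefSeq GRCm38.p6. No sample column was left unused.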

Additional observations from a re-analysis of the deposited data

Results flagged for a closer look

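The difference between genotypes itself differed between the RO and D/F samples, by the limma interaction test over 8 arrays, for 6 genes. The RO minus D/F difference was -6.91 for Pcbd1 (SE 0.67, limma adjusted p = 0.00634), -5.27 for P2ry14 (SE 0.52, limma adjusted p = 0.00634) and -2.84 for S100a11 (SE 0.30, limma adjusted p = 0.00690); in these 3 the knockout was the lower genotype in the RO samples and the higher in the D/F samples. It was -3.84 for Emb (SE 0.39, limma adjusted p = 0.00634) and -3.64 for Ctse (SE 0.42, limma adjusted p = 0.0142), which were high in the RO wild-type samples only. It was 3.28 for Zfp938 (SE 0.40, limma adjusted p = 0.0185), which was low in the D/F knockout samples only.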

How the results depend on the processing

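Of the genes that passed in the RO samples, 32 in all, the count was 6 after quantile normalization, 7 after median centring, 7 among genes above the median signal, 20 without the 25% of genes of lowest signal, 8 in the 4-group fit and 66 with a robust prior; leaving out 1 array gave 16 to 197. Genes with a gap of at least 1 numbered 44 above the median signal and 135 to 596 with 1 array left out. The D/F count of 79 became 0 after quantile normalization, 1 after centring, 0 without the trend, 0 above the median signal and 0 to 112 with 1 array left out. The count of 6 genes that differed between the sets was 0 above the median signal (554 at an unadjusted limma p below 0.05) and 6 to 38 with 1 array left out. Where a fit left 1 array in a group, that array was assumed to vary like the others.

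Jun kept its direction but not its call after quantile normalization (-1.90, limma adjusted p = 0.117), after centring (-1.76, 0.210), above the median signal (-2.10, 0.127) and in the 4-group fit (-2.10, 0.385); with 1 array left out it lay between -2.37 and -1.84. Cdk6 passed with a robust prior (-1.88, limma adjusted p = 0.0115) and lay between -2.39 and -1.36 with 1 array left out. Ctse missed the threshold after centring (-3.51, 0.0555). The causes were not tested. Small differences that did not pass turned sign after centring for Bsg (0.24), Ctsd (0.27), Ctss (0.31), Dnmt3a (0.23), Dnmt3b (0.074) and Fos (0.10), and after quantile normalization for Dnmt1 (-0.0093) and Fos (0.14). With 1 array left out they ran from -0.28 to 0.083 for Bsg, -0.27 to 0.14 for Ctsd, -0.17 to 0.11 for Ctss, -0.23 to 0.020 for Dnmt3a, -0.52 to 0.051 for Fos and -0.89 to 0.0054 for Jund. Pcbd1 passed in all 13 settings and Emb in all 11 that tested it, since the signal filters left Emb out. Quantile normalization kept 6 of the 32 (Pcbd1, Emb, Ctse, Rnf130, Tes and Olig3). No paired analysis was possible because the labels carry no replicate numbers. Only 2 arrays a group, and signals near the bottom of the scale, limit the precision.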
